A study of Homo sapiens with 7 samples.

Results

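The D-type cyclin genes are CCND1, CCND2 and CCND3, which encode cyclins D1, D2 and D3. They were taken by name from RefSeq, assembly GRCh38.p14 (gene IDs 595, 894 and 896), each with 5 kb before its start and 20 kb past its end, and are 3 of 19630 protein-coding genes whose strand was known. CCND1 lies on chromosome 11 at 69641156 to 69654474 (plus strand, 13319 bp), CCND2 on chromosome 12 at 4273762 to 4305353 (plus strand, 31592 bp) and CCND3 on chromosome 6 at 41934933 to 42050035 (minus strand, 115103 bp). The gene end in the direction of transcription is called the transcription end site (TES), and distances past it are positive.

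The data were peak lists from chromatin immunoprecipitation sequencing (ChIP-seq) of RNA polymerase II whose C-terminal domain (CTD) carried phosphate on threonine 4 (pThr4), recognised by antibody 6D7. The chromatin came from HEK293, an established human embryonic kidney line with an epithelial label, and the lists hold no expression values against which that label could be checked. In 1 group (SCP1_WT) nuclear lysate was incubated in vitro with active SCP1, a phosphatase of the CTD that acts on phosphorylated serine 5 (pSer5). In the other (SCP1_D96A) a matched aliquot was incubated with the catalytically inactive D96A mutant. Each group held 3 biological replicates, and an IgG precipitation was not analysed here. The comparison asks where pThr4 becomes detectable once the neighbouring pSer5 has been removed, as the series design states it. SCP1 acted on lysate and not in living cells.

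D-type cyclins are made in response to growth signals. They bind and activate the kinases CDK4 and CDK6, which phosphorylate the retinoblastoma protein, and this frees E2F transcription factors to switch on genes needed for DNA replication. The 3 proteins share much of this task and differ in the tissues that use them. The mRNA of cyclin D1 has a long 3′ untranslated region that controls its stability. pThr4 is a mark of polymerase late in transcription and is best known from the region just past the poly(A) site, where the transcript is cut and the polymerase is released.

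Peaks of CCND1 and CCND3 lay at the gene end, so the poly(A) signals of the transcripts are shown first. Each line below gives a stretch of 30 bases from the end of the GENCODE release 44 protein-coding transcript that reaches furthest along the gene, in the sense direction, with the last AATAAA hexamer in capitals. These transcripts belong to an annotation mapped to GRCh37, and whether they end at the same base as the RefSeq genes, from which all peak distances were measured, was not checked. The stretch lies in the last exon, in the 3′ untranslated region. The hexamer ended 15 bases before the end of the CCND1 transcript, 16 before that of CCND2 and 19 before that of CCND3. CCND3 was the only gene with 2 such hexamers in its last 60 bases, and the stretch shown holds both.
CCND1: caaacatgaaagtctagaAATAAAactggt
CCND2: aggttatgctatttggacAATAAActcacc
CCND3: taataaagatgattgtgaAATAAAactggc

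The 6 lists differed strongly in length, which touches every count given here. On chromosomes 1 to 22 and X, there were 12625, 6680 and 36892 peaks in SCP1_WT replicates 1, 2 and 3, and 2466, 1163 and 2699 in SCP1_D96A. Read counts are not part of the lists, so how deeply each library was sequenced is unknown and precision rests on the replicates. With 3 libraries against 3 there are 20 ways to assign them, so a two-sided exact permutation p-value cannot fall below 0.1, and none of the differences between groups could pass 0.05. The labels call the replicates biological, and p-values measure only the spread between these libraries.

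In total 39 peaks overlapped the 3 gene windows, 32 in SCP1_WT and 7 in SCP1_D96A libraries. CCND1 had 13 and 4, CCND2 had 13 and 1, and CCND3 had 6 and 2. No peak lay before the outermost start of any of the genes. Peaks lay within 1 kb of a TES in 14 cases, 8 in SCP1_WT and 6 in SCP1_D96A. That was 6 of the 7 peaks found with inactive SCP1 and 8 of the 32 found with active SCP1. The remaining SCP1_WT peaks lay inside the genes or further downstream, where other genes begin or end. Of all 39 peaks, 11 lay within 1 kb of another protein-coding gene, 5 at CCND1, 3 at CCND2 and 3 at CCND3. Those at CCND3 were peaks at its gene end, and 1 of them came from a SCP1_D96A library.

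**Figure D1:**
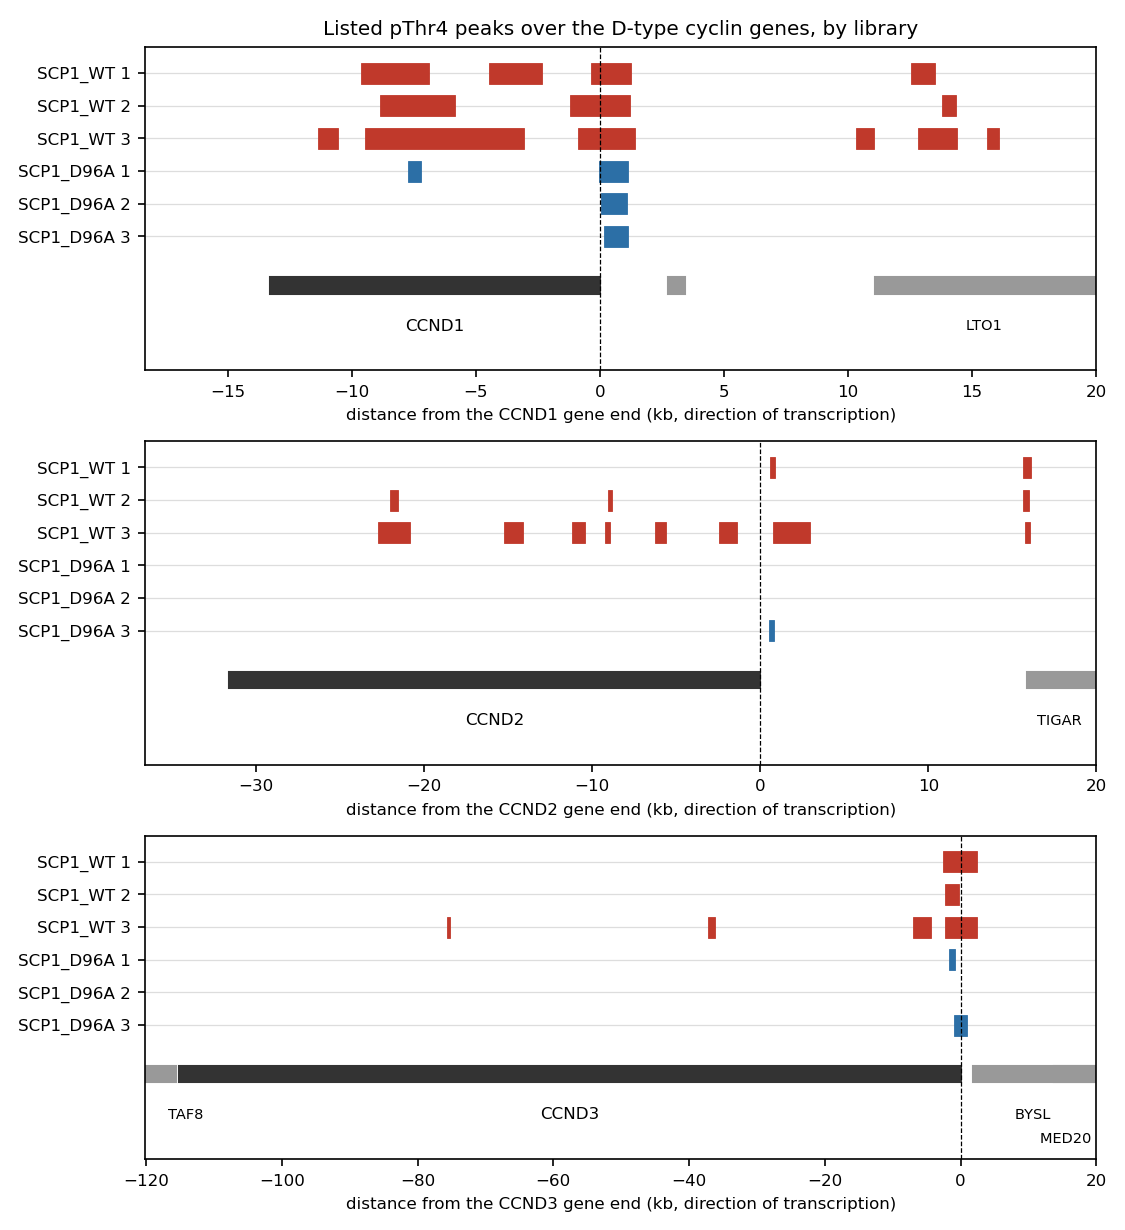
Every listed pThr4 peak over CCND1, CCND2 and CCND3 by library, with distance from the gene end in kb on the horizontal axis (red, SCP1_WT; blue, SCP1_D96A; black bar, the gene; grey bars, other protein-coding genes, of which the small unnamed bar is LOC124902704). A peak stood at the end of CCND1 in all 6 libraries, while the peaks inside the genes came from SCP1_WT libraries apart from 2 at CCND1 and CCND3.

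CCND1 was the member with a peak at its end in every library. In SCP1_WT replicate 1 this peak ran from 372 bp before to 1264 bp after the TES (chr11:69654102-69655738), with a fold enrichment over background of 5.42 and a −log10 p-value of 8.97. In replicate 2 it ran from 1198 bp before to 1204 bp after (chr11:69653276-69655678), with a fold of 5.42 and a −log10 p-value of 8.99. In replicate 3 it ran from 869 bp before to 1396 bp after (chr11:69653605-69655870), with a fold of 6.92 and a −log10 p-value of 13.4. With active SCP1 the peak thus straddled the gene end in each replicate.

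With inactive SCP1 the same peak was shorter and lay almost wholly past the gene end. In SCP1_D96A replicate 1 it ran from 58 bp before to 1135 bp after the TES (chr11:69654416-69655609), with a fold of 5.91 and a −log10 p-value of 9.74. In replicate 2 it ran from 51 to 1084 bp after the TES (chr11:69654525-69655558), with a fold of 4.20 and a −log10 p-value of 5.92. In replicate 3 it ran from 163 to 1108 bp after the TES (chr11:69654637-69655582), with a fold of 4.6 and a −log10 p-value of 6.44. The stretch shared by all 6 libraries was 922 bases long, from 163 to 1084 bp past the TES. Each SCP1_D96A peak of CCND1 lay entirely within the peaks of every SCP1_WT library.

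The far edge of this peak moved little between the groups and the near edge moved more. The last base was 1288 ± 98.2 bp past the TES with active SCP1 and 1109 ± 25.5 bp with inactive SCP1 (SD, n = 3 each, exact permutation test p = 0.1). The first base was 813 ± 416 bp before the TES with active SCP1 and 52 ± 111 bp after it with inactive SCP1 (SD, n = 3 each, exact permutation test p = 0.1). The width was 2102 ± 408 bp against 1058 ± 126 bp (exact permutation test p = 0.1, n = 3 each), and on these 3 measures the groups did not overlap. The fold enrichment was 5.92 ± 0.866 against 4.90 ± 0.892 (exact permutation test p = 0.3, n = 3 each), and the groups overlapped, since SCP1_D96A replicate 1 lay above SCP1_WT replicates 1 and 2. These 4 measures were chosen after their values had been seen.

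Inside CCND1, every SCP1_WT library had a broad peak in the interior of the gene. It measured 2720 bp in replicate 1 (fold 4.31), 3043 bp in replicate 2 (fold 3.73) and 6403 bp in replicate 3 (fold 3.96). Replicate 1 had a further peak of 2135 bp (fold 3.60) from 4471 to 2337 bp before the TES, which overlapped the replicate 3 peak in part, and replicate 3 had another of 781 bp (fold 3.56) nearer the start. Peaks covered 39.3%, 31.8% and 60.5% of the gene in SCP1_WT replicates 1, 2 and 3. The corresponding shares with inactive SCP1 were 4.38%, 0% and 0%. The interior peak of SCP1_D96A replicate 1 was 524 bp long (fold 3.72, chr11:69646737-69647260), and it lay within the interior peak of each SCP1_WT library.

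A second group of CCND1 peaks stood further downstream and could not be assigned to CCND1. LTO1 (gene ID 220064), which encodes a factor in iron-sulfur protein maturation, is transcribed toward CCND1 and ends 11089 bp past the CCND1 TES. SCP1_WT replicate 1 had a peak of 968 bp there (fold 3.88), replicate 2 a peak of 586 bp (fold 3.53), and replicate 3 had 3 peaks of 748, 1594 and 507 bp (folds 2.90, 3.62 and 3.39). The first of those 3 lay between the genes, just past the LTO1 end, and the others lay inside LTO1. No SCP1_D96A library had a peak there. A pair of convergent genes cannot be separated by a ChIP signal that carries no strand. LOC124902704, a small protein-coding locus between them, held no peak in any library.

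CCND3 had a peak near its end in every SCP1_WT library, and it reached further into the gene than at CCND1. In SCP1_WT replicate 1 it was 4991 bp long, from 2621 bp before to 2369 bp after the TES (chr6:41932564-41937554, fold 3.57, −log10 p-value 5.77). In replicate 2 it was 2093 bp long and ended 213 bp before the TES (chr6:41935146-41937238, fold 4.22, −log10 p-value 7.69). In replicate 3 it was 4764 bp long, from 2360 bp before to 2403 bp after the TES (chr6:41932530-41937293, fold 4.29, −log10 p-value 8.12). The 3 peaks thus began at nearly the same place inside CCND3, and the part past the gene end was missing in replicate 2.

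With inactive SCP1 the CCND3 end carried shorter peaks in 2 libraries and none in the other. SCP1_D96A replicate 1 had a peak of 794 bp inside the gene, from 1685 to 892 bp before the TES (chr6:41935825-41936618, fold 3.38, −log10 p-value 4.66). SCP1_D96A replicate 3 had a peak of 1905 bp from 999 bp before to 905 bp after the TES (chr6:41934028-41935932, fold 3.33, −log10 p-value 4.57). SCP1_D96A replicate 2, the shortest list, had no peak in the CCND3 window. The 5 libraries with a peak shared 108 bases, from 999 to 892 bp before the TES, so their common stretch lay inside the gene and not past its end as at CCND1.

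BYSL (gene ID 705), which encodes a factor for building the small ribosomal subunit, is transcribed toward CCND3 and ends 1887 bp past the CCND3 TES. The peaks of SCP1_WT replicates 1 and 3 reached into BYSL and covered 483 and 517 of its bases. Only 886 bp of the zone past CCND3 lay more than 1 kb from another protein-coding gene. Those 886 bp were wholly covered in SCP1_WT replicates 1 and 3 and in SCP1_D96A replicate 3, and not covered in the other libraries. MED20, a Mediator subunit gene that overlaps the far end of the zone, held no peak in any library. Of the signal between the 2 converging ends, no share can be given to either gene.

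The long interior of CCND3, measured from its outermost start, was almost bare. Apart from the peaks at its end, it held 3 peaks, all in SCP1_WT replicate 3, of 2664 bp (fold 3.1), 1069 bp (fold 2.79) and 450 bp (fold 2.74). The peak of 2664 bp covered an inner CCND3 start at 41941808, and most of the interior lies before that start. TAF8, a gene for a subunit of the general transcription factor TFIID, begins beyond the outermost CCND3 start and is transcribed away from it. No peak lay in the stretch of TAF8 within the window.

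**Figure D2:**
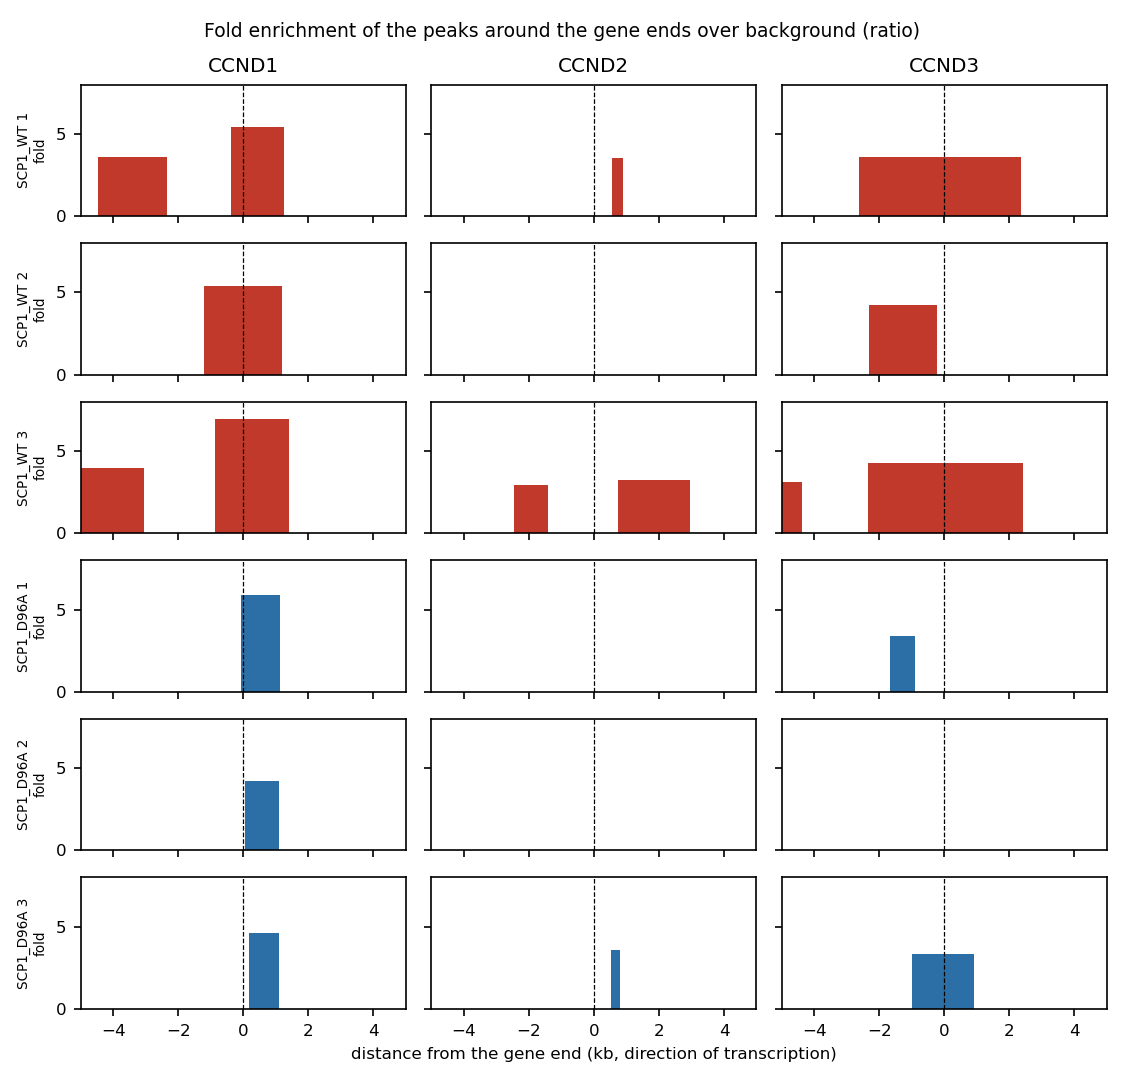
Peaks within 5 kb of each gene end, drawn with the fold enrichment over background that the caller gave as height (vertical axis, ratio) against distance from the gene end in kb, 1 row for each library (red, SCP1_WT; blue, SCP1_D96A). The CCND1 peak sits just past the end with inactive SCP1 and straddles it with active SCP1, the CCND3 peak straddles the end in 3 libraries and lies inside the gene in 2, and CCND2 has short, low peaks past its end in 3 libraries.

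CCND2 was the member with a peak near its end in the fewest libraries. SCP1_WT replicate 1 had a peak of 345 bp from 558 to 902 bp past the TES (chr12:4305911-4306255, fold 3.52), and SCP1_WT replicate 3 had one of 2207 bp from 742 to 2948 bp past it (chr12:4306095-4308301, fold 3.26). SCP1_WT replicate 2 had none near the TES. SCP1_D96A replicate 3 had a peak of 285 bp from 518 to 802 bp past the TES (chr12:4305871-4306155, fold 3.60), which was its only CCND2 peak. SCP1_D96A replicates 1 and 2 had no peak in the window of 56592 bp. The SCP1_D96A replicate 3 peak was covered to 86.0% by the replicate 1 peak with active SCP1, to 0% by replicate 2 and to 21.4% by replicate 3.

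Inside CCND2, peaks were listed in SCP1_WT replicates 2 and 3 alone. Replicate 2 had 2 short peaks, of 484 bp (fold 3.52) and 264 bp (fold 3.49). Replicate 3 had 6, between 309 and 1931 bp long, with folds between 2.87 and 3.58, and 2 of them overlapped the replicate 2 peaks. Most of the CCND2 coverage therefore came from 1 library, the one with the longest list.

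The peaks furthest past CCND2 stood at the start of another gene. TIGAR (gene ID 57103), which encodes a fructose bisphosphatase induced by p53, starts 15860 bp past the CCND2 TES and runs in the same direction. Its start carried a peak in each SCP1_WT library, of 512 bp (fold 3.39), 361 bp (fold 4.63) and 302 bp (fold 3.43), and in no SCP1_D96A library. These peaks covered 283, 266 and 146 of the 300 bases around the TIGAR start, from 250 bases before to 50 after it, which are printed here because they carry the only peak in the CCND2 window that recurred in all SCP1_WT libraries. The RefSeq sequence (GRCh38.p14, chr12:4320963-4321262, plus strand) holds GGGCGG, the core of the GC box, 3 times on either strand (in capitals, CCGCCC on the opposite strand), CCAAT once and TATAA not at all.
TIGAR start: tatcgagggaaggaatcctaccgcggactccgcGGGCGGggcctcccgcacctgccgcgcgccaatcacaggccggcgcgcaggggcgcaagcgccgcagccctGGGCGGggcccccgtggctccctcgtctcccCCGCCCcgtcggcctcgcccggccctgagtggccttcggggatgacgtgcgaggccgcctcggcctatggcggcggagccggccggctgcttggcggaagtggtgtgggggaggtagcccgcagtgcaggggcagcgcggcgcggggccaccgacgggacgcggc

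The outermost starts of the D-type cyclin genes were bare, which was the common case among protein-coding genes. No library had a peak within 1 kb of the outermost start of any of the 3 genes, where 20% of protein-coding genes had a peak in at least 1 library. The nearest peak to the CCND1 start lay 3699, 4436 and 1966 bp away in SCP1_WT replicates 1, 2 and 3, and 5581, 13369 and 13481 bp away with inactive SCP1. For CCND2 the nearest peak lay 32149, 9544 and 8819 bp away with active SCP1 and at least 32109 bp away with inactive SCP1. An absent peak says only that no stretch passed the cutoff of that list.

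CCND3 has several start sites in RefSeq, and 1 of its inner starts was covered in 1 library. The start at 41941808 lay under a peak of SCP1_WT replicate 3 (chr6:41939302-41941965, fold 3.1, −log10 p-value 4.45), which also came within 97 bp of the start at 41939205. No other library had a peak within 1 kb of either start. The peak covered 207 of the 300 bases around the start at 41941808 (chr6:41941759-41942058, minus strand). They are printed below from RefSeq GRCh38.p14 because this was the only examined start of a D-type cyclin gene that itself lay under a peak. Inner starts of CCND1 and CCND2 were not examined. Around the start at 41939205 the same peak covered 154 of 300 bases. The printed sequence holds GGGCGG 4 times on either strand (in capitals), CCAAT once and no TATAA. Of 35116 RefSeq promoters of this length, 45.0% hold GGGCGG, 34.6% CCAAT and 20.4% TATAA on either strand, so these letters are common ones.
CCND3 start: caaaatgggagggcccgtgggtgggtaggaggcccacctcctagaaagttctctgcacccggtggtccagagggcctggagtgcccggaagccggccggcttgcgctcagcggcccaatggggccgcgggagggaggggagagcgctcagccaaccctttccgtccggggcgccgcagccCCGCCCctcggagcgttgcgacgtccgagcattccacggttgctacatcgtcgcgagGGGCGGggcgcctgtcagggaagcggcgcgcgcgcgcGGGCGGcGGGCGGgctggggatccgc

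The bases under peaks were then summed over each window. In the CCND1 window they came to 7460, 6032 and 12299 in SCP1_WT replicates 1, 2 and 3 and to 1718, 1034 and 946 in SCP1_D96A. The means were 8597 ± 3285 and 1233 ± 423 (SD, n = 3 each), a 6.97-fold difference (exact permutation test p = 0.1). In the CCND3 window the sums were 4991, 2093 and 8947 with active and 794, 0 and 1905 with inactive SCP1, with means of 5344 ± 3441 and 900 ± 957 (SD, n = 3 each) and a 5.94-fold difference (exact permutation test p = 0.1). In all 3 windows each SCP1_WT library lay above each SCP1_D96A library, as was so for 26.8% of protein-coding genes. With the 1163 strongest peaks of each list, or with peaks of −log10 p at least 6, this no longer held for CCND3, where the difference was 2286 bases (exact permutation test p = 0.4), or for CCND2, where it was 120 bases (exact permutation test p = 1). With peaks of −log10 q at least 2 it held for CCND1 and CCND3 but not for CCND2, where the difference was 602 bases (exact permutation test p = 0.4).

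CCND2 followed the same order with far larger spread. Its sums were 857, 1109 and 8402 with active and 0, 0 and 285 with inactive SCP1, with means of 3456 ± 4285 and 95 ± 165 (SD, n = 3 each, exact permutation test p = 0.1). Without SCP1_WT replicate 3 the difference between the means fell from 3361 to 888 bases at CCND2 and from 4444 to 2642 bases at CCND3. At CCND1 it was 7364 bases with all libraries and between 5513 and 8647 bases with any 1 library left out. In the names of the peaks, replicates 1 and 2 of both groups share a number that differs in replicate 3, and what it stands for is not stated. Among replicates 1 and 2 alone the differences were 5370 bases at CCND1, 983 at CCND2 and 3145 at CCND3, again without overlap, and an exact permutation test over 4 libraries cannot go below 0.333. Replicate 3 alone leaves 1 library in each group and no test.

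**Figure D3:**
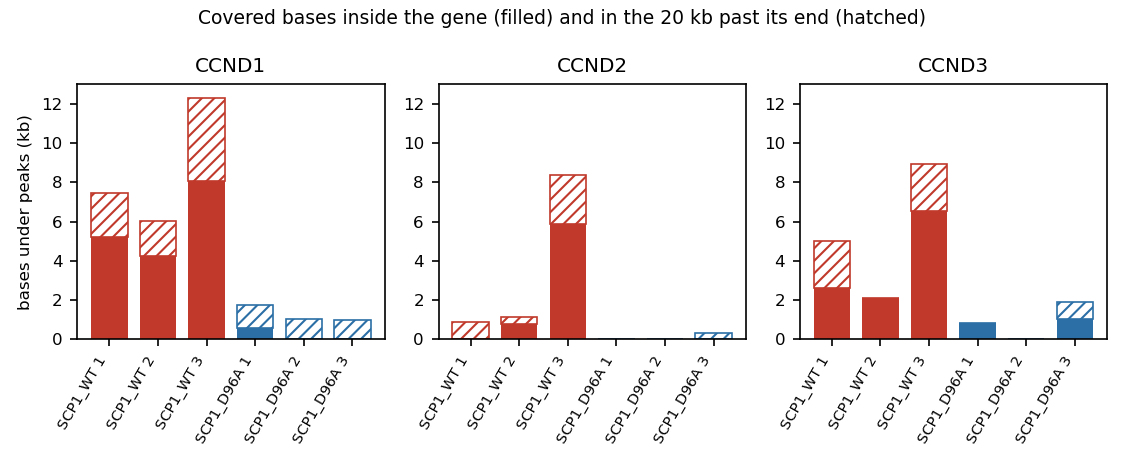
Bases under peaks in kb for each library, inside the gene (filled) and in the 20 kb past its end (hatched), for CCND1, CCND2 and CCND3 (red, SCP1_WT; blue, SCP1_D96A). Inside CCND1 the peaks covered 5228, 4242 and 8054 bases with active and 583, 0 and 0 with inactive SCP1, and the tallest bar of each gene is SCP1_WT replicate 3.

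Past the gene ends the difference between the groups was smaller and depended on the neighbouring genes. In the 20 kb past CCND1, peaks covered 2232, 1790 and 4245 bases with active and 1135, 1034 and 946 bases with inactive SCP1, with means of 2756 ± 1309 and 1038 ± 94.6 (SD, n = 3 each, exact permutation test p = 0.1). Without SCP1_WT replicate 3 the difference fell from 1717 to 973 bases. Where bases within 1 kb of another protein-coding gene were left out, which removes LTO1, CCND1 had 1264, 1204 and 1396 covered bases in SCP1_WT against 1135, 1034 and 946 in SCP1_D96A. The groups still did not overlap, but the difference was 250 bases.

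For CCND2 and CCND3 the groups overlapped once neighbouring genes were left out. The 20 kb past CCND2 held 857, 361 and 2509 covered bases with active and 0, 0 and 285 with inactive SCP1 (exact permutation test p = 0.1, n = 3 each), and 514 bases of difference without SCP1_WT replicate 3. Away from TIGAR they held 345, 0 and 2207 against 0, 0 and 285 (exact permutation test p = 0.4, n = 3 each). The 20 kb past CCND3 held 2369, 0 and 2403 bases with active and 0, 0 and 905 with inactive SCP1 (exact permutation test p = 0.4, n = 3 each). The CCND3 difference was 2084 bases without SCP1_WT replicate 2, which had none. CCND1 and CCND2 thus were the members whose covered downstream bases were higher in every SCP1_WT than in every SCP1_D96A library, against 18.8% of protein-coding genes.

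The furthest base under a peak within the 20 kb followed the neighbours too. It lay 14651 ± 1310 bp past the CCND1 TES with active and 1109 ± 25.5 bp past it with inactive SCP1 (SD, n = 3 each, exact permutation test p = 0.1), a difference of 13542 bp that fell to 179 bp with bases near other genes left out. At CCND2 it lay 16069 ± 67.1 bp past the TES with active SCP1, which is the start of TIGAR, and away from TIGAR the difference fell from 15802 to 1016 bp. An extent of many kb past these genes was therefore not a measure of their own ends.

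The strength of each gene was described by the percentile of its strongest peak within its own list, that is, by the percent of that list's peaks with a lower −log10 p-value. Folds and p-values have no common scale between libraries of unknown depth, and the percentile avoids that but depends on how many weak peaks a list admits. For CCND1 the percentile was 96.8, 96.03 and 99.5 in SCP1_WT replicates 1, 2 and 3, and 94.2, 49.6 and 76.4 in SCP1_D96A. The strongest peak was the one at the gene end in all 6 libraries. Its means were 97.5 ± 1.83 and 73.4 ± 22.4 (SD, n = 3 each, exact permutation test p = 0.1).

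For CCND3 the percentile was 84.3, 93.0 and 98.0 with active SCP1, and 15.3 and 12 in the 2 SCP1_D96A libraries that had a peak. The means were 91.7 ± 6.94 (n = 3) and 13.6 ± 2.31 (n = 2), with an exact permutation test p = 0.1. CCND3 thus ranked high among the peaks found with active SCP1 and near the bottom of the lists with inactive SCP1. These ranks depend on where each list was cut. A −log10 p-value of 4.66 stood at percentile 15.3 in SCP1_D96A replicate 1, while 4.61 stood at 80.2 in SCP1_WT replicate 3. Under the stricter forms of the lists no SCP1_D96A library kept a CCND3 peak, so this difference could not be checked there. For CCND2 the mean was 77.3 ± 12.9 with active SCP1 (SD, n = 3), and the 1 inactive library with a peak stood at 20.7, which allows no test. In SCP1_WT replicate 2 the CCND2 value was that of the TIGAR start.

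The percentile of CCND1 no longer separated the groups when lists of equal length were compared. With the 1163 strongest peaks of each list the difference was 15.2 points (exact permutation test p = 0.4), and with peaks of −log10 p at least 6 it was 29.4 points (exact permutation test p = 0.3). The groups overlapped in both cases. With peaks of −log10 q at least 2 the difference was 46 points without overlap (exact permutation test p = 0.1, n = 3 each). Without SCP1_D96A replicate 2, the lowest value, the difference fell from 24.1 to 12.2 points.

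CCND1 kept its gene end in all 6 libraries under 2 of the 3 stricter forms of the lists. With 1163 peaks per list, each of the 6 libraries still held 1 CCND1 peak, the one at the gene end. The covered bases differed by 1044 in the window and 250 past the TES, without overlap between the groups. Each peak kept the width called in its full list, so these differences repeat those of the gene-end peak given above. They do not show what peaks called at equal list length would give. With peaks of −log10 q at least 2 the CCND1 end was present in all 6 libraries, and with −log10 p at least 6 in 3 SCP1_WT and 2 SCP1_D96A libraries. CCND3 kept its end in 3 SCP1_WT libraries at −log10 q of at least 2 and in 2 under each of the other settings, and in no SCP1_D96A library under any of the 3. CCND2 lost its end in every library under all 3 settings, and its last peak with 1163 per list was the TIGAR start in SCP1_WT replicate 2. Peaks wholly inside CCND1 were absent from all 6 lists of 1163.

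Set against all protein-coding genes, the end of CCND1 was among the more widely found. A peak within 1 kb of the TES in all 6 libraries was present at 3.38% of genes (663), CCND1 among them and CCND2 and CCND3 not. A peak there in every SCP1_WT library was present at 12.6% of genes, among them CCND1 and CCND3. A peak anywhere in the 20 kb past the TES was present in every SCP1_WT library for 22.5% of genes and in all 6 libraries for 6.23%. CCND1 and CCND2 belonged to the first of these classes and CCND1 to the second.

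Among the 663 genes with such a peak in every library, the CCND1 peak was of the narrower kind. The median width was 4461, 3311 and 6261 bp in SCP1_WT replicates 1, 2 and 3 and 1821, 1115 and 1925 bp in SCP1_D96A, and CCND1 lay below the median in each library. In fold enrichment CCND1 lay above the median of these genes in each library, which was 4.57, 4.43 and 4.83 in SCP1_WT and 4.36, 4.01 and 4.42 in SCP1_D96A. A peak wider in every SCP1_WT than in every SCP1_D96A library, as at CCND1, was found for 73% of the 663 genes. It started earlier along the gene in 60.3% and ended further downstream in 56.7%. The wider peak of CCND1 was therefore the common case among genes of this class.

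The place of the CCND1 peak was also the usual one. The share of all protein-coding genes under a peak was highest 700, 800 and 1000 bp past the TES in SCP1_WT replicates 1, 2 and 3, at 12.9%, 9.08% and 20.2% of genes. With inactive SCP1 it was highest 800, 900 and 700 bp past the TES, at 4.36%, 2.13% and 4.48%. The stretch of CCND1 shared by all libraries, from 163 to 1084 bp, spans each of these positions. The common stretch of CCND3 lay before its TES instead.

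**Figure D4:**
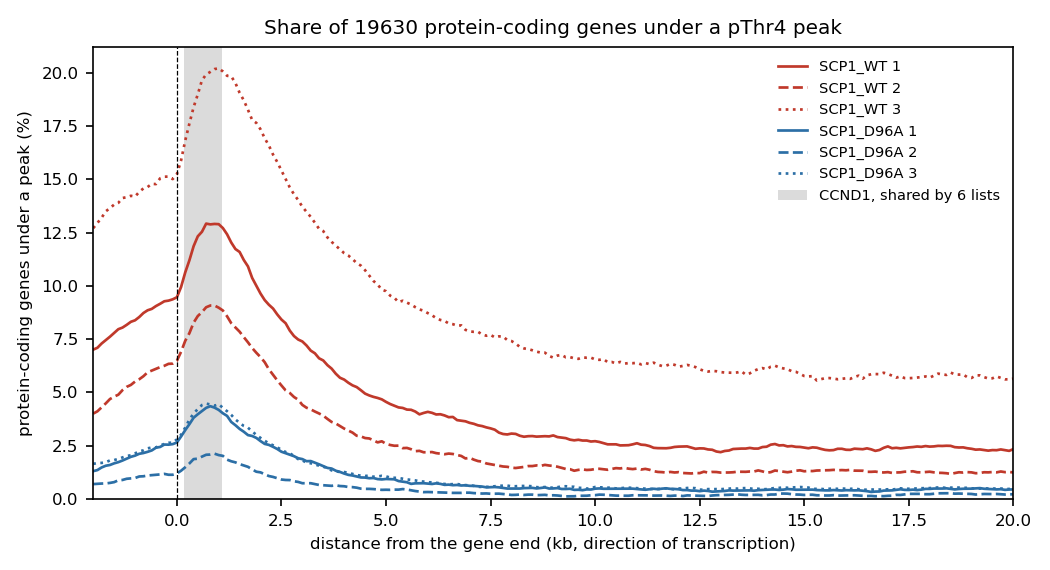
Percent of 19630 protein-coding genes that lie under a peak (vertical axis) by distance from the gene end in kb (horizontal axis), 1 line for each library (red, SCP1_WT; blue, SCP1_D96A; solid, dashed and dotted, replicates 1, 2 and 3). The grey band is the stretch past CCND1 covered in all 6 libraries, and it spans the highest point of each line, at 20.2% in SCP1_WT replicate 3 and 2.13% in SCP1_D96A replicate 2.

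The partners and targets of D-type cyclins were read in the same way from a list of 32 genes of the G1 to S transition. Of these, 13 (40.6%) had a peak in the 20 kb past the TES in every SCP1_WT library, where 22.5% of protein-coding genes did, and 5 (15.6%) had one in all 6 libraries, against 6.23%. No downstream peak in any library was found for 6 of the 32 (18.8%), against 44.4% of protein-coding genes. Covered downstream bases were higher in every SCP1_WT than in every SCP1_D96A library for 11 of the 32 (34.4%, against 18.8% of protein-coding genes) and lower for none. The list's median of the mean covered bases was 676 with active and 0 with inactive SCP1, against 139 and 0 over all protein-coding genes. None of the 32 had a peak at its start in every SCP1_WT library, where 3.9% of protein-coding genes did. As for the members, the zone past a gene can hold the start or end of another.

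Of the kinase partners of D-type cyclins, CDK4 had 3005, 868 and 4160 covered downstream bases with active and 690, 694 and 1345 with inactive SCP1, and the groups overlapped. CDK6 had no downstream peak in any library. RB1, the main substrate of these kinases, and its relative RBL2 had none either, and RBL1 had 478, 0 and 1562 bases with active and 0 in each library with inactive SCP1.

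The 6 listed genes of E2F factors, a family of which the retinoblastoma protein and its relatives hold some members in check, ranged widely. E2F4 had 8250, 2653 and 11972 bases with active and 713, 0 and 780 with inactive SCP1, and E2F1 had 8513, 3396 and 10352 against 2058, 254 and 1615. E2F3 had 2928, 1730 and 3139 against 0 in each SCP1_D96A library, and E2F2 had 1928, 1635 and 2372 against 274, 0 and 1414. E2F5, with 746 bases, and E2F6, with 1535, were covered with active SCP1 in replicate 3 alone, and E2F6 also had 256 bases in SCP1_D96A replicate 3. In E2F1 to E2F4 the groups did not overlap.

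The partners of the E2F factors were covered too. TFDP1, an obligate partner of E2F proteins, had 5093, 4019 and 5988 against 2787, 2476 and 3259, the highest values with inactive SCP1 among the listed G1 to S genes, and its relative TFDP2 had 2810, 3153 and 4564 against 0 in each library. In both the groups did not overlap. TFDP1 had a peak within 1 kb of its TES in 2 SCP1_WT libraries and 1 SCP1_D96A library. TFDP2 had one in 1 SCP1_WT library alone, so most of its coverage was not at its own end.

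The remaining genes of the list named by their coverage act on cyclin and kinase activity. CDKN2D, an inhibitor of CDK4 and CDK6, had 4521, 3502 and 9781 bases against 1064, 730 and 2158. AMBRA1, the adaptor that marks D-type cyclins for degradation, had 1961, 1696 and 5839 against 0, 0 and 454, and FBXO31, another adaptor acting on cyclin D1, had 3277, 317 and 4432 against 0 in each library. CKS1B, a small subunit that binds cyclin-dependent kinases, had 3421, 1359 and 6401 against 363, 1517 and 1766, with overlap between the groups. GSK3B, the kinase that phosphorylates cyclin D1 ahead of its export and degradation, had 858, 656 and 792 against 0 in each library. CDKN2D, AMBRA1 and FBXO31 had no peak within 1 kb of the TES in any library, so their coverage lay further downstream. CKS1B had such a peak in 2 SCP1_WT libraries and GSK3B in 3. GSK3B, CDK6, E2F2, E2F5, E2F6 and the retinoblastoma genes are named for their roles, after their values had been seen, and not by their coverage.

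**Figure D5:**
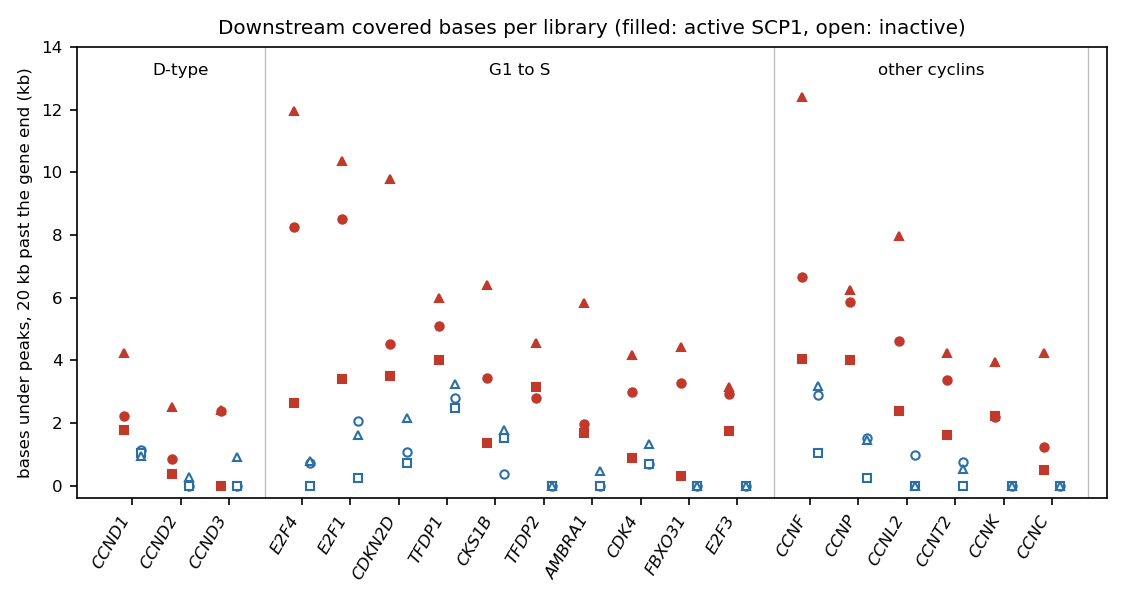
Bases under peaks in the 20 kb past the gene end, in kb, for the D-type cyclin genes and for the listed genes with such a peak in every SCP1_WT library (up to 10 of a list with the highest mean), 1 point for each library (red filled, SCP1_WT; blue open, SCP1_D96A; circle, square and triangle, replicates 1, 2 and 3). CCND1 has 1790 to 4245 bases with active SCP1, below E2F4, E2F1, CDKN2D and CCNF in each replicate. CDKN2D, AMBRA1, FBXO31, CCNP and CCNC had no peak within 1 kb of their TES in any library.

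Of 24 genes of other cyclins, 6 (25%) had a downstream peak in every SCP1_WT library, near the 22.5% of all protein-coding genes. In all 6 libraries 2 of the 24 (8.33%) had one, against 6.23%, and 7 (29.2%) had none in any library, against 44.4%. All 6 were also higher in every SCP1_WT than in every SCP1_D96A library, which is 25% of the list against 18.8% of protein-coding genes. CCNF, the cyclin of an SCF ubiquitin ligase, had 6646, 4042 and 12413 bases with active and 2879, 1049 and 3188 with inactive SCP1. CCNP had 5854, 3996 and 6258 against 1523, 247 and 1463. CCNP had no peak within 1 kb of its TES in any library, while CCNF had one in every library. CCNL2, a cyclin linked to splicing, had 4617, 2396 and 7953 against 971, 0 and 0, and it was the single gene of the list with a peak at its start in all 6 libraries, as had 0.825% of protein-coding genes.

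The cyclins of the transcription kinases made up the others. CCNT2, a cyclin of the elongation factor P-TEFb, had 3379, 1633 and 4245 bases against 762, 0 and 540. CCNK, partner of CDK12 and CDK13, which phosphorylate the CTD, had 2176, 2214 and 3948 against 0 in each library. CCNC, the cyclin of the Mediator kinase module, had 1228, 501 and 4227 against 0 in each library. CCNC had no peak within 1 kb of its TES in any library, while CCNT2 and CCNK had one in every SCP1_WT library. CCND1 had a downstream peak in every library, with 946 to 1135 bases in SCP1_D96A, while these 3 had none in at least 1 SCP1_D96A library. CCNE1 and CCNE2, the cyclins that act after the D-type ones, and CCNH were on both lists. CCNE1 had 1139 and CCNE2 869 downstream bases in SCP1_WT replicate 3 and none in the other libraries, and CCNH had none at all.

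The D-type cyclin genes shared few covered positions around their ends. Likeness was the overlap of covered positions from 2 kb before to 20 kb past the TES, pooled over the 6 libraries and divided by the positions covered in either gene. Between members it was 0.0939 for CCND1 and CCND2, 0.262 for CCND1 and CCND3 and 0.193 for CCND2 and CCND3. The libraries behind both genes of a pair were the same ones, so these values are a description.

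Other genes came closer. For CCND1 the genes most alike were MRPS2 at 0.546, RPS2 at 0.493 and PKM at 0.486. MRPS2, which encodes a protein of the mitochondrial ribosome, had 1387, 1206 and 2401 covered downstream bases with active and 1157, 746 and 1288 with inactive SCP1. For CCND3 they included FTSJ3 at 0.715 and PSMC5 at 0.695. FTSJ3 and PSMC5 are neighbours on chromosome 17 that are transcribed in opposite directions from overlapping starts. For CCND2 they were CMIP at 0.504, STUM at 0.480 and LIMK2 at 0.479, and STUM and LIMK2 had downstream coverage in SCP1_WT replicate 3 alone, of 1999 and 3200 bases.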

How the data were processed

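pThr4 ChIP-seq peak lists of 6 HEK293 libraries were analysed, 3 with active SCP1 (SCP1_WT) and 3 with the inactive D96A mutant. The submitters' processing notes name FastQC, cutadapt 4.6 and Bowtie2 2.5.2 with build hg38. The peak caller, its control and its cutoffs are not given in the sources used here. The layout is that of MACS broad peaks, called per library. For each peak the authors deposited a score, a fold enrichment (ratio over background), a −log10 p-value and a −log10 q-value. The score was not used. The study's methods describe other libraries and were not followed for these lists. Depth per library is unknown, so no counting interval could be given.

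Genes came from RefSeq GRCh38.p14, and strand from the RefSeq promoter table (15812 genes) or, by name and chromosome, GENCODE release 44 (3818 genes, CCND1 and CCND2 among them). Strand was known for 98.3% of 19974 protein-coding genes, and 63 genes on which the sources differed kept the RefSeq strand. A peak counted with at least 1 bp of overlap. Covered bases, extent past the TES and the percentile of the strongest peak within its list were computed in Python 3.11.15 with NumPy 2.4.6. Groups were compared by two-sided exact permutation tests over libraries, tested beforehand on simulated data. The members and gene lists were chosen with earlier results of these data known. Named genes were the members, protein-coding neighbours in their windows, up to 10 genes per list with a downstream peak in every SCP1_WT library, and the 3 genes most alike to each member, none within 100 kb of it, of which 1 is not reported here. The promoters of CCND1 and CCND2 and the sequence under the peaks were not analysed here. Alternatives were peaks of −log10 q at least 2, the 1163 strongest peaks of each list, a common −log10 p-value of at least 6, overlap of at least 50% of the peak, a zone of 10 kb, a replicate block, replicates 1 and 2 alone, each library left out, and, chosen after seeing the data, a zone without bases within 1 kb of another protein-coding gene.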

Additional observations from a re-analysis of the deposited data

How the results depend on the processing

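None of the member values changed direction under any alternative run, and no test could pass 0.05 in this design. Counts over genes depended on how the lists were cut. The number of G1 to S genes with a downstream peak in every SCP1_WT library was 13, and 8 with −log10 q of at least 2, 4 with equal peak number, 4 with the common p cutoff and 13 to 17 with 1 library left out. The number of other cyclin genes was 6, and 2, 0 and 2 under the same 3 settings, and 6 to 11 with 1 library left out (11 without SCP1_WT replicate 2). The number of protein-coding genes with more covered downstream bases in every SCP1_WT than in every SCP1_D96A library was 3693, and 2098, 751 and 1010 under those settings, and 3707 to 5971 with 1 library left out (5971 without SCP1_WT replicate 2). Fewer peaks enter under each of the 3 settings. For the G1 to S and other cyclin counts, the matching share of all protein-coding genes under these settings is not given here. How those lists compare with all protein-coding genes is therefore known only for the lists as deposited.

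Replicate numbers were shared by the groups, and the inactive mutant was given a matched aliquot. In both groups replicate 2 had the shortest list and replicate 3 the longest. Across 10918 genes, which are not independent replicates, libraries with the same number did not deviate together (r = 0.0442, -0.209 and -0.166). With 3 libraries in a group, these values do not settle whether the libraries are paired. The main tests did not treat the numbers as pairs, and the replicate block is the paired form. With a replicate block the differences in covered bases were 7364 (CCND1), 3361 (CCND2) and 4444 (CCND3) in the windows and 1717, 1147 and 1289 past the TES, and the exact sign-flip permutation p was 0.25 for all but the last, at 0.5. No block could be fitted to the CCND2 percentile. Depth is unknown, so an absent peak does not show an absent mark.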

Other observations

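CCNB1, the gene of a mitotic cyclin, had a downstream peak in every SCP1_D96A library but not in every SCP1_WT library. Its downstream zone held 520, 0 and 1761 covered bases in SCP1_WT replicates 1, 2 and 3 and 667, 682 and 408 in SCP1_D96A. The groups overlapped. CCNA2, another cyclin of the S and G2 phases, had no downstream peak in any library but a peak within 1 kb of its start in 3 of 3 SCP1_WT and 0 of 3 SCP1_D96A libraries. A start peak in every SCP1_WT library was found for 3.9% of protein-coding genes, and in all 6 libraries for 0.825%. How many genes share the pattern of CCNB1 or of CCNA2 is not given here. Both genes were chosen after their values were seen, and neither difference was tested.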
